A study of Caenorhabditis elegans with 54 samples.

Results

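The FMRFamide-like peptide (FLP) genes of Caenorhabditis elegans encode precursors of short, amidated neuropeptides. Members were taken as all rows of the deposited count table with a symbol made of flp- and a number, which gave 31 of 19909 genes. They were followed in RNA from whole animals carrying the daf-2(e1370) allele, in which a mutation of the insulin receptor makes larvae arrest as dauers in the warmth. The libraries came from 18 conditions with 3 biological replicates each, and each replicate held 8000 worms. Dauers were collected on days 1, 4, 15 and 30 of arrest (D1, D4, D15 and D30) at 0 h, and at 6 and 24 h after fresh food and a lower temperature had started their exit. L3 larvae that had not arrested served as the reference. The authors kept their strains at a lower temperature than the dauers. Arrest and temperature therefore cannot be told apart where 0 h dauers are compared with L3. For 5 further conditions, dauers had received UV on day 1 at a dose not given in the sources used here: D1 at 6 and 24 h of exit, and D4 at 0, 6 and 24 h. All groups, the L3 larvae included, carried the daf-2 mutation, so nothing here compares with a wild type.

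FLP precursors are cut by the prohormone convertase EGL-3, trimmed by the carboxypeptidase EGL-21, amidated and packed into dense core vesicles. The released peptides act mainly through G protein-coupled receptors on feeding, locomotion, arousal, egg laying and sensory responses. The dauer is an arrested, non-feeding larva that replaces the third larval stage, and sensory neurons and their peptides take part in the choice to enter it and to leave it.

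Libraries held 670316 to 12952957 estimated counts (median 8457508). The D4 libraries were shallower than most, with 4070045 to 5978702 at 0 h, and the 3 irradiated D4 libraries at 0 h were the shallowest, with 670316 to 856869. Levels are given as CPM, counts relative to the library total after TMM scaling over all libraries. FLP counts made up 0.0643% to 0.25% of a library, and the library with the fewest held 1099 of them. The 6 dauer markers summed to 7.77 to 15.0 CPM in L3, 24890 to 26750 in D1 dauers and 743 to 1027 in D4, D15 and D30 dauers, so all dauers lay above L3. They did not separate dauers from exiting larvae across days, since D1 larvae at 6 and 24 h of exit (means of 12060 and 1962) were above the later dauers, and D15 larvae were higher at 24 h (713) than at 6 h (382). All 13 pan-neuronal genes were detected in every group. Across genes, L3 replicate 3 stood apart from replicates 1 and 2, with a chi-square per degree of freedom of 23.38 and 29.45. Between replicates 1 and 2 of L3 it was 1.987. The FLP sum was 872 CPM in L3 replicate 3 and 841 and 829 in replicates 1 and 2.

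Of the 31 genes, 30 were deep enough to test in every comparison. The other, flp-23, had 47 counts over all 54 libraries, at most 4 in one, and 0 in 30 of them, so it is described no further. The family was unevenly placed in the genome (Ensembl annotation of WBcel235): 13 genes, 41.9% of the family, lie on the X chromosome, which holds 13.7% of the genes in the table. Chromosomes III and IV hold 5 each, II and V 3 each, and I holds 2. The genes are short, with longest transcripts of 422 to 973 nucleotides (median 633). A run of 3 members lies on the minus strand of X, with flp-28 at 10087314 to 10087966, flp-3 at 10091946 to 10092964 and flp-2 at 10094430 to 10095245, all inside the span of W07E11.1 on the plus strand. In all, 9 members overlap a protein-coding gene on the other strand. Whether counting used strand is not given in the sources used here, so reads shared with such a partner cannot be told apart. For the run on X, the partner W07E11.1 fell by 0.73 on the log2 scale along the slope from D1 to D30 (adjusted p = 0.00455), while all 3 members rose, but from D1 to D4 it was higher too, by 0.47 (adjusted p = 1.5e-09).

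Between members, levels were compared per kilobase of the longest transcript. In L3 the highest were flp-1, which encodes peptides of the AVK interneurons that act on locomotion, at 143 CPM per kb, and flp-14 at 118, with flp-8, a gene of the oxygen-sensing URX neurons, ranked next. In D15 dauers flp-1 (554 CPM per kb) and flp-14 (387) still led, followed by flp-22 (317), flp-28 (239) and flp-9 (227), and flp-10 was lowest at 10.5.

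Nearly all FLP genes had more transcript in newly formed dauers than in L3 larvae. Of the 30 members tested, 25 were higher in D1 dauers (0 h) and 0 were lower, where 38.7% of all 13419 genes tested were higher and 36.9% lower (75.6% in all). None was lower at an unadjusted p under 0.05 in edgeR either, and DESeq2 called 24 higher and 0 lower. The median log2 difference was 0.78 over the members and 0.04 over all genes. Without TMM, with library totals alone, the median of all genes moved up by 0.34 and 30 members were called higher.

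**Figure D1:**
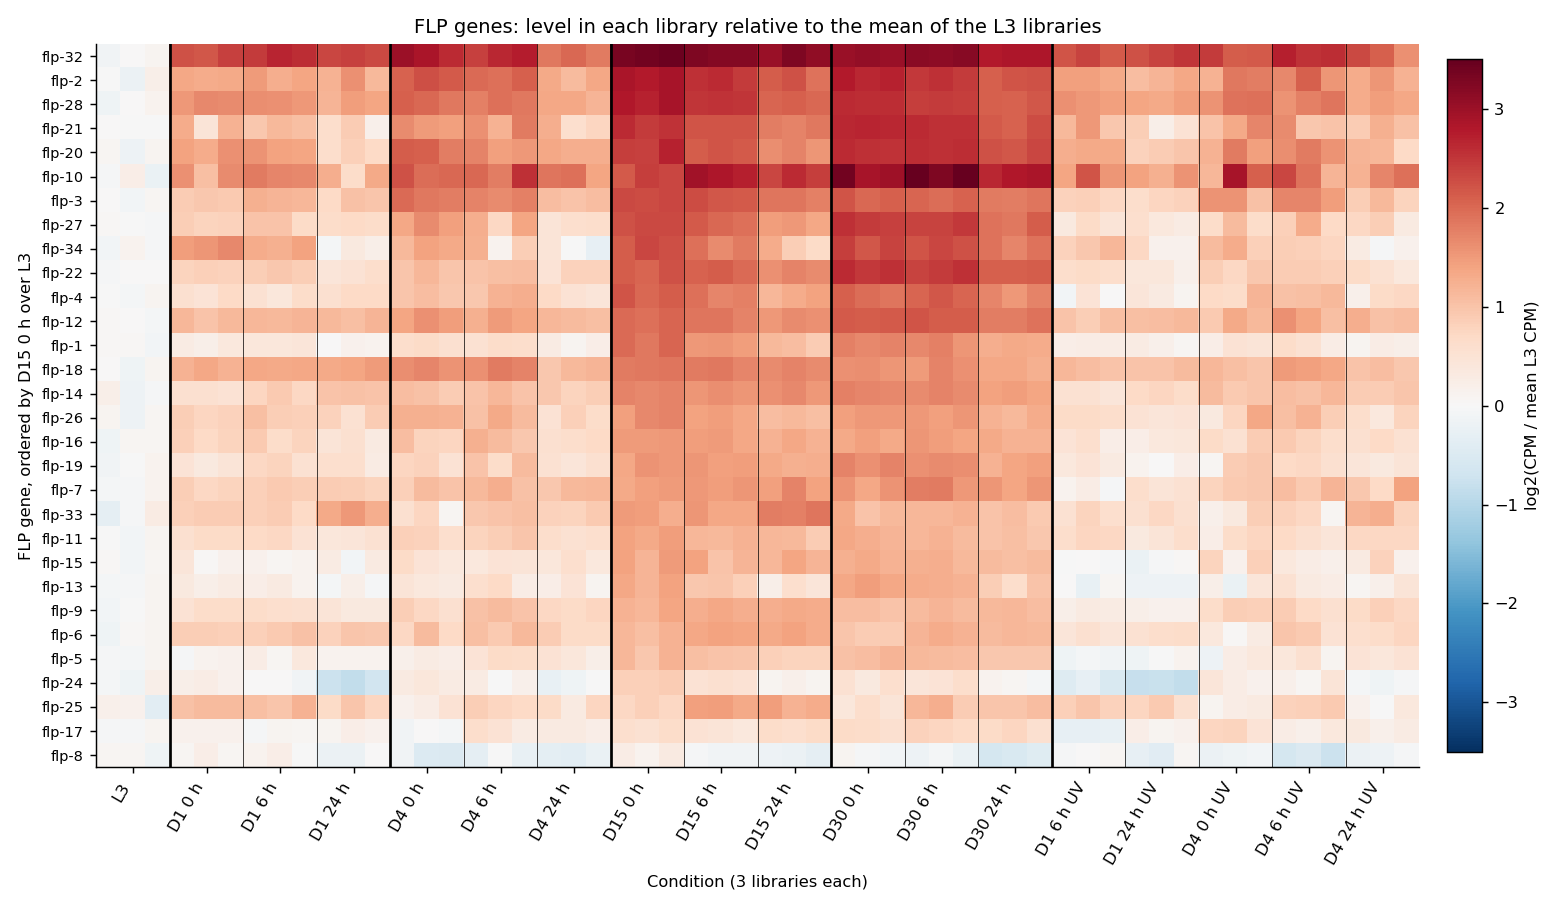
Level of each of the 30 tested FLP genes (rows, ordered by the D15 0 h mean over the L3 mean) in every library (columns, 3 per condition), as log2 of CPM over the gene's mean in L3, so that red is above and blue below L3. The D15 and D30 columns are the reddest, and flp-32 stands at the top with a D15 mean 10.4 times that of L3. At the bottom, flp-8 has a D15 mean 1.18 times that of L3 and lies below L3 at 24 h of exit from D30.

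Among the members whose peptides have a known sensory or feeding role, flp-34, which acts with the receptor NPR-11 in learned odour avoidance, was at 4.55, 4.77 and 5.38 CPM in the L3 libraries and at 13.5, 14.3 and 15.61 in the D1 dauers. The groups were far apart, with a log2 difference of 1.53 (SE 0.14, adjusted p = 2.0e-05). flp-18, whose peptides activate NPR-4 and NPR-5 and act on foraging and fat, was at 40.4, 45.3 and 47.9 CPM in L3 and at 103.6, 103.7 and 113 in D1 dauers, a log2 difference of 1.23 (SE 0.08). flp-21, a ligand gene of the social feeding receptor NPR-1, was at 8.92 to 9.09 CPM in L3, but its D1 libraries spread from 12.3 to 21.9. They still lay above L3 (log2 difference 1.02, SE 0.21). flp-7, which acts on NPR-22 in the control of body fat, was higher by 0.76 (SE 0.10).

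Genes of arousal and sleep did not move as one group. flp-2 and flp-20, both arousal genes, were higher in D1 dauers by 1.29 (SE 0.13) and 1.42 (SE 0.13), and flp-11, the sleep gene of the RIS neuron, by 0.61 (SE 0.08). The genes of the ALA neuron, which drives sleep after stress, differed less: flp-13 by 0.25 (SE 0.09), and flp-24 by 0.18 (SE 0.11, adjusted p = 0.16), which was not called. The call of flp-13 was lost without D1 replicate 1 or 3 or without L3 replicate 1 or 2 (adjusted p 0.055 to 0.15). All 24 other calls held without each library in turn. The EGL-6 ligand genes of egg laying also differed: flp-10 was at 1.22, 1.40 and 1.69 CPM in L3 and 2.98, 4.38 and 4.56 in D1 dauers (log2 difference 1.45, SE 0.25), while flp-17, a gene of the BAG neurons, had a log2 difference of 0.12 (SE 0.07, adjusted p = 0.13).

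The largest differences were in members with no role given here. flp-32 was at 6.64, 7.37 and 7.81 CPM in L3 and at 33.1, 34.2 and 37.8 in D1 dauers, so that the groups did not come near each other. Its log2 difference was 2.23 (SE 0.11, adjusted p = 6.5e-07). flp-28 went from 17.0, 18.9 and 20.7 CPM in L3 to 54.02, 59.7 and 60.1 in D1 dauers (log2 difference 1.58, SE 0.10). Besides flp-17 and flp-24, the members not called were flp-5, flp-8 and flp-15, with log2 differences of 0.04, 0.09 and 0.19.

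The rise went on during arrest. Over the 12 dauer libraries at 0 h, the slope on dauer day, given as the log2 change from day 1 to day 30, was positive for 23 members past the threshold and negative for 0 (at an unadjusted p under 0.05, 24 and 0; DESeq2, 24 and 0). Of all 13884 genes tested, 24.9% rose and 31.8% fell (56.7% in all). The median slope was 0.93 over the members and -0.09 over all genes. With library totals alone the median of all genes moved by -0.23, and 19 members rose and 1 fell. Of the 23 calls, 20 held without each library in turn, and those of flp-3, flp-9 and flp-26 were lost without any single D1 library (adjusted p 0.059 to 0.099), flp-3 and flp-9 also without D4 replicate 3 (0.0501 and 0.054) and flp-3 without D30 replicate 1 (0.052). With D1 left out, 14 members rose from D4 to D30 and 0 fell.

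The steepest slopes were those of flp-22, flp-21, flp-1 and flp-27. flp-22 was at 61.1, 63.0 and 64.01 CPM on D1, at 70.6, 71.0 and 79.9 on D4, at 147, 156 and 167 on D15 and at 199, 213 and 220 on D30. It was one of 4 members that rose at each step, with flp-12, flp-19 and flp-27, and its slope was 1.78 (SE 0.17, adjusted p = 5.4e-06). flp-21 was at 12.3, 21.1 and 21.9 CPM on D1, 24.3, 25.4 and 28.3 on D4, 48.7, 52.0 and 54.8 on D15 and 55.6, 55.8 and 57.1 on D30 (slope 1.53, SE 0.28). flp-27 was at 24.6, 24.6 and 25.8 CPM on D1, 36.3, 38.5 and 44.4 on D4, 66.3, 69.9 and 70.5 on D15 and 74.4, 77.01 and 82.8 on D30 (slope 1.46, SE 0.25). In both genes no 2 days overlapped. The slope of flp-1 was 1.52 (SE 0.34), most of it between D4 and D15.

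Step by step, the members moved unevenly. From D1 to D4, 21 members rose and 4 fell (36% and 34.1% of the same 13884 genes, 70.1% in all), from D4 to D15 29 rose and 0 fell (31.6% and 34.4%, 66% in all), and from D15 to D30 5 rose and 10 fell (28.9% and 28.8%, 57.8% in all). No member fell from D4 to D15 at an unadjusted p under 0.05, and DESeq2 called 28 higher and 0 lower. The steps share their D4 and D15 libraries, so they are not independent of each other. The members' median changes were 0.32, 0.60 and -0.12 on the log2 scale, beside 0.05, -0.02 and 5.8e-04 for all genes. The D4 libraries at 0 h were less deep than those of the other days (medians of 4251697 counts on D4 and 7861196, 8804636 and 10415517 on D1, D15 and D30), and the part of depth was not tested.

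The largest rises from D1 to D4 were next to each other on X: flp-3 went from 30.4 to 31.5 CPM on D1 to 56.9 to 65.1 on D4 (log2 change 1.02, SE 0.08), and flp-2 from 23.6 to 24.6 to 40.4 to 45.5 (0.89, SE 0.08). For both, all D4 libraries lay above all D1 libraries, and the partner W07E11.1 on the other strand was also higher in this step. flp-27 rose by 0.72 (SE 0.09), and flp-10, at 5.58, 5.73 and 6.76 CPM on D4, by 0.62 (SE 0.22). Those that fell were flp-25, flp-8, flp-33 and flp-17, by 0.67, 0.42, 0.36 and 0.15. flp-25 was at 20.4, 21.4 and 21.7 CPM on D1 and 11.2, 12.1 and 14.3 on D4, and it was the one member whose highest dauer mean was that of D1. flp-8 was at 60.7, 61.2 and 67.6 CPM on D1 and 40.9, 42.0 and 53.0 on D4, and flp-17 at 64.6, 64.8 and 65.0 and then 53.2, 55.8 and 58.9. The libraries of flp-33 were at 16.9, 17.3 and 17.6 CPM on D1 and spread from 9.96 over 13.9 to 15.8 on D4. In all 4 genes the D4 libraries lay below the D1 libraries. Of the 25 calls of this step, 17 held without each library, and 8 were lost in some fits (flp-5, flp-7, flp-9, flp-10, flp-15, flp-17, flp-24 and flp-33, adjusted p 0.051 to 0.39). Of those described here, flp-10 was lost without D1 replicate 2 or D4 replicate 1, flp-33 without D1 or D4 replicate 3, and flp-17 without replicate 1 or 3 of either day.

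Between D4 and D15, flp-1 rose most. It was at 144, 148 and 154 CPM in the D4 libraries and at 347, 387 and 398 in the D15 libraries, a log2 change of 1.29 (SE 0.05, adjusted p = 4.8e-15), and no earlier group came near the D15 level. flp-4 rose from 23.7 ± 1.14 CPM (SD, n = 3) to 51.3 ± 3.72 (1.06, SE 0.09), flp-22 by 1.03 (SE 0.06) and flp-21 by 0.95 (SE 0.12). The ALA sleep gene flp-13, which was not called between D1 and D4, rose from 30.62 to 34.01 CPM to 56.7 to 65.1 (0.89, SE 0.08). The exception was flp-10 (0.19, SE 0.20, adjusted p = 0.40). The calls of flp-6 and flp-25 were lost without D4 replicate 1, and those of flp-6 and flp-18 without D4 replicate 3 (adjusted p 0.058 to 0.13). With library totals alone flp-18 was at -0.07 in this step.

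From D15 to D30 changes were small and split. flp-10 rose from 6.41 to 7.73 CPM to 10.6 to 15.0 (0.80, SE 0.16), flp-22 by 0.44 (SE 0.05), flp-19, at 62.7, 69.9 and 72.1 CPM on D15 and 74.4, 80.5 and 80.7 on D30, by 0.21, and flp-27 by 0.19. flp-24 fell from 75.2 to 79.1 CPM to 53.8 to 63.9 (-0.35, SE 0.06), and flp-32, flp-25 and flp-18 fell by 0.34, 0.27 and 0.26. On D30 flp-32 was at 58.6, 58.8 and 61.1 CPM after 72.2, 75.8 and 78.3 on D15, and flp-18 at 129, 134 and 138 after 158, 162 and 162. flp-25 was at 16.5, 16.6 and 17.9 CPM on D15 and at 13.3, 13.6 and 15.4 on D30. None of these 3 overlapped between the days. The count was sensitive to single libraries: in place of 15, edgeR called 9 members without D15 replicate 1, 9 without D15 replicate 3, 9 without D30 replicate 3 and 11 without D30 replicate 2. In these fits 5 or 6 members rose and 4 or 5 fell. With library totals alone 2 rose and 14 fell. Of the falls named, that of flp-25 was lost without any single D15 library and without D30 replicate 1 or 3 (adjusted p 0.080 to 0.22).

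**Figure D2:**
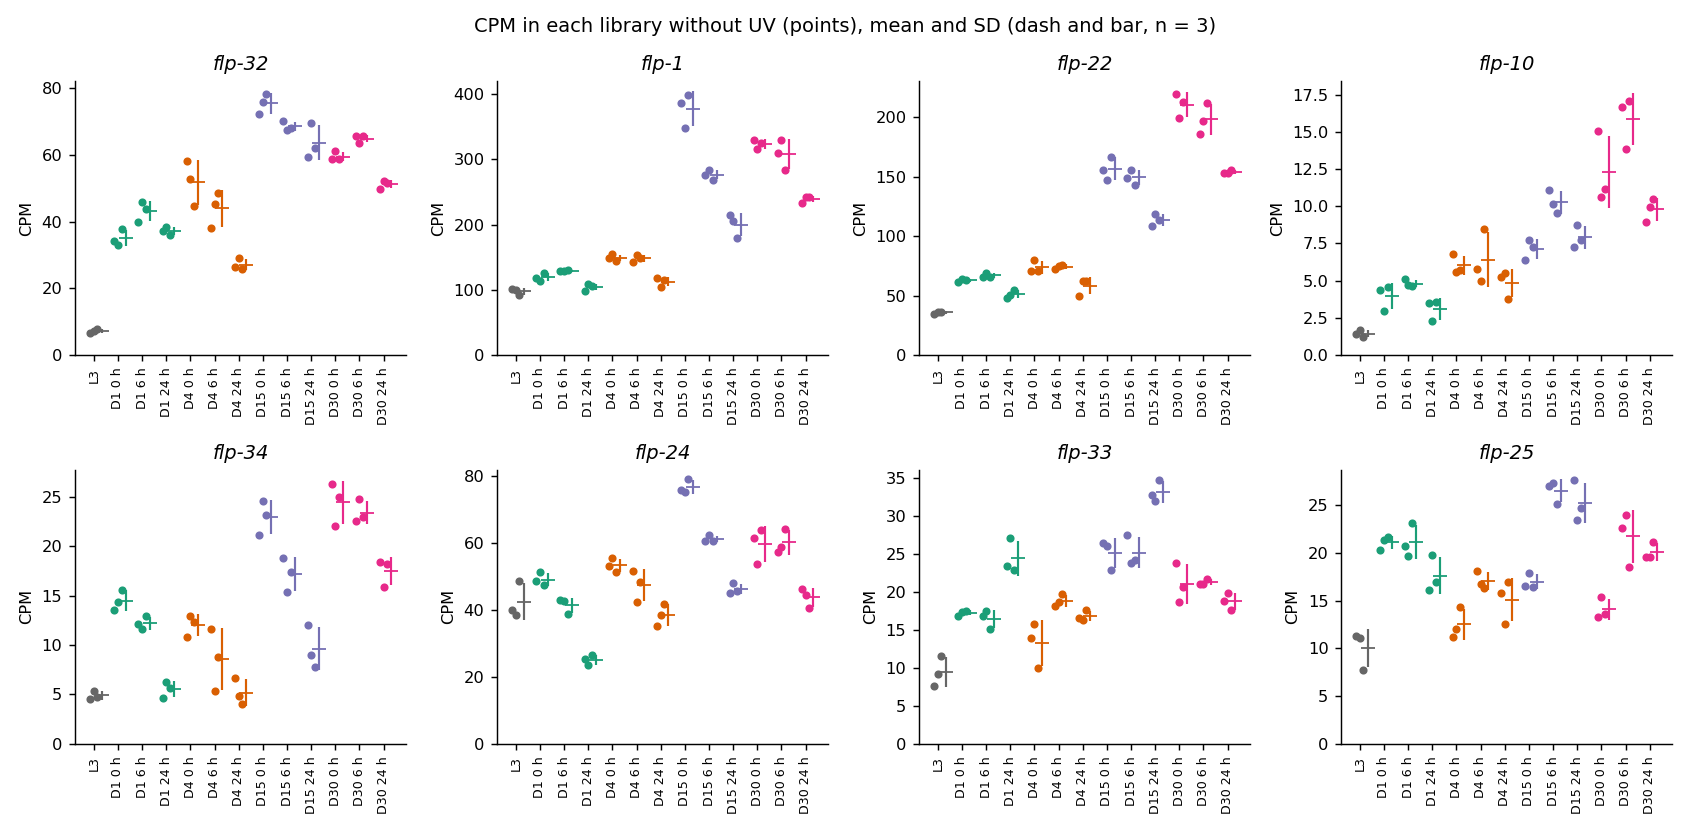
CPM of 8 FLP genes (panels) in each of the 39 libraries without UV (points, 3 per condition), with the mean and SD beside them (n = 3). flp-32, flp-1, flp-22 and flp-10 are higher in D30 than in D1 dauers (at 0 h), with flp-32 and flp-1 highest on D15. On each dauer day flp-34 and flp-24 are lower at 24 h than at 0 h. flp-33 is higher at 24 h than at 0 h on D1 and D15, and flp-25 is lower in D4 than in D1 dauers.

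As a sum, FLP transcripts stood at 829 to 872 CPM in L3, 1342 to 1371 in D1, 1518 to 1675 in D4, 2547 to 2769 in D15 and 2508 to 2608 in D30 dauers, so the D15 and D30 libraries overlapped and all other groups were apart. In these bulk libraries a larger neuronal share of the RNA and more FLP RNA per neuron cannot be told apart. The 13 pan-neuronal genes summed to 1251 to 1264 CPM in L3, 1389 to 1415 in D1, 1089 to 1157 in D4, 1285 to 1430 in D15 and 1469 to 1497 in D30 dauers. Genes of this list moved in both directions. Between D1 and D30 dauers mean unc-18 went from 196 to 88.2 CPM and rab-3 from 27.4 to 14.2. By contrast, snb-1 went from 86.8 to 152 and unc-13 from 283 to 395. The ratio of the FLP sum to the pan-neuronal sum was 0.67 ± 0.02 (SD, n = 3) in L3, 0.97 ± 0.02 in D1, 1.43 ± 0.03 in D4, 1.96 ± 0.19 in D15 and 1.72 ± 0.05 in D30 dauers. Markers of other tissues also changed between L3 and these dauer days. The 6 body-wall muscle genes summed to means of 19140 CPM in L3, 12300 in D1, 1360 in D4, 1157 in D15 and 806 in D30 dauers, and the 6 intestinal genes to 3385, 2010, 879.5, 714 and 310.4. Both fell most before D4, and their means went on falling to D30. The 5 hypodermal genes summed to means of 449 CPM in L3, 334 in D1, 184 in D4, 173 in D15 and 73.2 in D30 dauers. The 5 pharyngeal genes did not follow this course, with 2350 CPM in L3, 929 in D1, 1925 in D4, 1425 in D15 and 869 in D30 dauers. CPM are shares of a library, and the part of these markers in the FLP values was not tested.

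**Figure D3:**
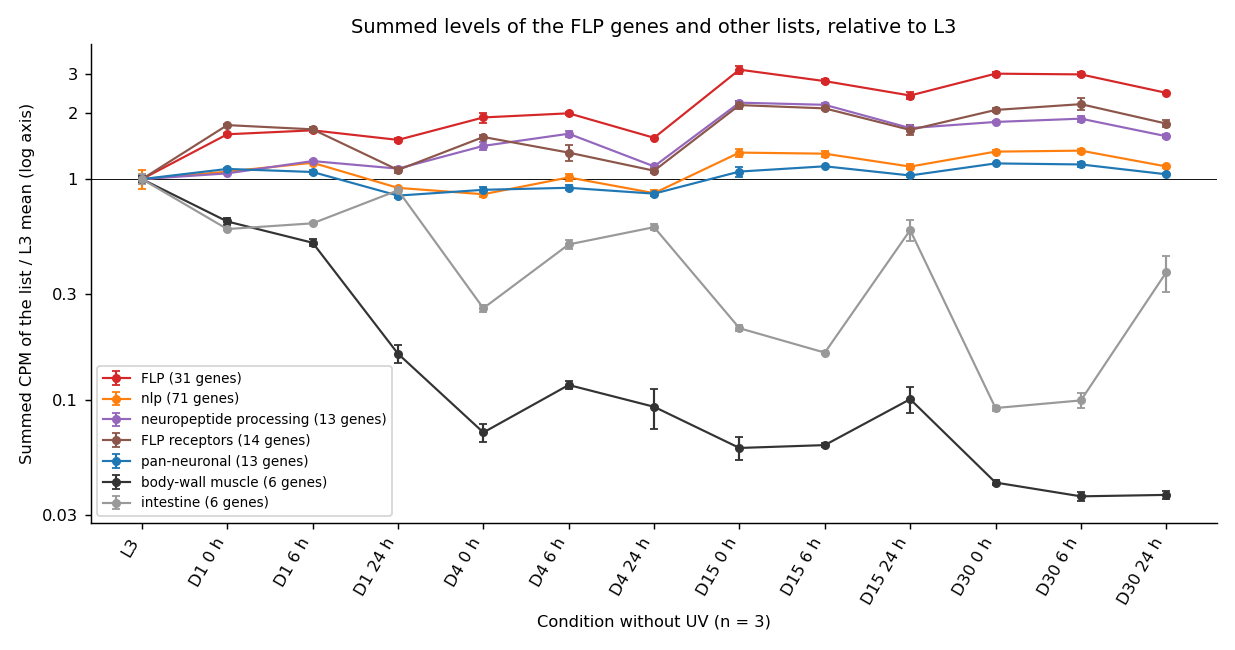
Summed CPM of the FLP genes and of 6 other gene lists in each condition without UV, divided by the list's mean in L3 (log axis; points are means and bars SD of 3 libraries, the line at 1 is the L3 level). The FLP sum rises to about the 3-fold line on D15 and D30, the pan-neuronal sum stays near 1, and at 0 h the body-wall muscle and intestine sums are lower on each later dauer day.

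Genes of neuropeptide processing, dense core vesicles and FLP receptors moved in part with the precursors. On the list of 13 processing genes, which includes nep-1 and nep-2, 5 were higher and 5 lower in D1 dauers than in L3 (38.7% and 36.9% of all genes, median of the list 0.02). From D4 to D15 9 rose and 1 fell (31.6% and 34.4% of all genes, median of the list 0.67). The convertase egl-3 was at 214 CPM in L3, 272 in D1, 507 in D4, 844 in D15 and 764 in D30 dauers (means of 3 libraries), and its chaperone sbt-1 at 83.8, 127, 208, 382 and 366. The furin-like convertase bli-4, known for its work on the cuticle, did not share this course (351, 343, 306, 311 and 149 CPM). Of the rest of the list, egl-21, kpc-1, cpd-1, pghm-1 and pgal-1 had higher means in D30 than in D1 dauers. The means of aex-5 and nep-2 were lower in D30 than in D1 dauers. So were those of pamn-1 (162.5 CPM on D1 and 74.9 on D30), nep-1 (147.5 and 37.9) and cpd-2 (32.6 and 4.38). The 15 dense core vesicle genes summed to means of 1471 CPM in L3, 1998 in D1, 2243 in D4, 3459 in D15 and 3364 in D30 dauers. At 24 h of exit from D1, D4, D15 and D30 their sums had means of 1798, 1771, 2747 and 2837 CPM. The vesicle list thus rose and fell much as the FLP sum did. Of 14 FLP receptor genes, 8 were higher and 0 lower in D1 dauers than in L3, beside the same 38.7% and 36.9% of all genes. The median of the receptor genes was 0.48, and 9 of them were called at an unadjusted p under 0.05. The largest difference was in npr-4, a receptor for flp-18 peptides, which was at 8.68 ± 1.74 CPM (SD, n = 3) in L3 and 61.4 ± 2.14 in D1 dauers (log2 difference 2.78, SE 0.13), and then at 28.9 on D4. The EGL-6 receptor gene rose over dauer days by 1.19 (SE 0.15), from 6.20 to 14.3 CPM, beside its ligand gene flp-10, whose slope was 1.39 (SE 0.22). The slope of flp-17, also an EGL-6 ligand gene, was 0.61 (SE 0.13), with a change of -0.15 from D1 to D4. Among the nlp genes, which encode the other neuropeptide-like proteins, 36 were higher and 8 lower of 65 tested in D1 dauers against L3 (38.7% and 36.9% of all genes). Over dauer days, 33 of the 63 nlp genes tested rose and 10 fell (24.9% and 31.8% of all genes). Their sum was at 1551 to 1885 CPM in L3, 1863 to 1899 in D1 and 1443 to 1537 in D4 dauers, so that it overlapped between L3 and D1 and was lower on D4. In D15 and D30 dauers it was at 2207 to 2402 and 2298 to 2350, above all libraries of L3 and of D1 and D4 dauers. At 24 h of exit it was at 1571 to 1607 after D1 and 1456 to 1552 after D4. After D15 and D30 it was at 1950 to 2036 and 1974 to 2012. The nlp and FLP lists were not tested against each other.

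During exit, FLP genes that fell outnumbered those that rose on D4, D15 and D30, while on D1 the directions were less uneven. The change from 0 to 24 h along the slope was negative past the threshold for 7 members and positive for 3 on D1 (31.4% and 31% of 13729 genes, 61.9% in all), for 15 and 0 on D4 (21% and 22.6% of 12607, 43.6% in all), for 15 and 1 on D15 (19.9% and 22.4% of 13153, 42.3% in all) and for 20 and 0 on D30 (22.2% and 24.6% of 13086, 46.7% in all). On D1 the share of members that fell was below that of all genes. There the 4 calls lost without some library (flp-9, flp-16, flp-22 and flp-28) were all falls, which leaves 3 lower and 3 higher, and RLE factors, DESeq2 and the replicate block each gave 5 lower and 3 higher. At an unadjusted p under 0.05, 0 members rose on D4 and 1 on D30, and DESeq2 called 0 on both days. Median changes over the members were -0.07, -0.36, -0.26 and -0.27, beside -0.01, -0.04, 0.02 and 0.02 over all genes. On D30 the count was 10 lower and 2 higher with library totals alone, a setting that raised the median of all genes by 0.14. The pan-neuronal list had 10 of 13 genes lower and 0 higher on D1, 4 and 1 on D4, 3 and 1 on D15, and 5 and 1 on D30. Intestinal markers were higher at 24 h than at 0 h on all 4 days, with mean sums of 2010 and 3011 CPM on D1, 879.5 and 2050 on D4, 714 and 1987 on D15 and 310.4 and 1279 on D30. Pharyngeal markers were at 929 and 2443 CPM on D1, 1925 and 2397 on D4, 1425 and 2971 on D15 and 869 and 1377 on D30. Other tissues did not move one way. Body-wall muscle markers were at 12300 and 3093 CPM on D1, 1360 and 1778 on D4, 1157 and 1925 on D15 and 806 and 709 on D30. Hypodermal markers were at 334 and 185 CPM on D1, 184 and 295 on D4, 173 and 118 on D15 and 73.2 and 75.6 on D30. The part of these lists in the FLP values was not tested.

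The odour learning gene flp-34 fell most on the first 3 of these days. On D1 it dropped from 13.5 to 15.61 CPM at 0 h to 4.66, 5.67 and 6.25 at 24 h, where it overlapped the L3 libraries (log2 change -1.34, SE 0.13, adjusted p = 5.3e-06). On D4 it went from 10.8, 12.4 and 12.9 CPM to 4.00, 4.85 and 6.66, and on D15 from 21.1, 23.2 and 24.5 to 7.82, 8.97 and 12.1. The changes were -1.19 (SE 0.28) and -1.15 (SE 0.15), but on D30 by only 0.44 (SE 0.10), from 22.04 to 26.3 CPM to 15.9 to 18.4. The test of a difference between the slopes of the 4 days gave an adjusted p of 0.00106 for flp-34, and it was past the threshold for 17 members in all (64.2% of 14975 genes).

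Members of arousal and sleep were among those that fell. flp-24 fell on all 4 days: on D1 from 47.4 to 51.2 CPM to 23.5 to 26.4, below all L3 libraries (log2 change -0.89, SE 0.07, adjusted p = 1.1e-06), and on D4, D15 and D30 by 0.46, 0.61 and 0.43. flp-20 fell by 0.71, 0.64, 0.76 and 0.29 on D1, D4, D15 and D30. On D1 its libraries went from 20.1, 22.1 and 25.1 CPM to 12.7, 13.4 and 14.6, and on D15 from 43.7, 44.5 and 53.2 to 23.8, 25.4 and 27.6. flp-16 was at 50.8, 53.2 and 56.0 CPM at 0 h and 39.0, 43.0 and 46.2 at 24 h on D1 (-0.27, SE 0.09), with no overlap in either gene, but the call of flp-16 was lost without D1 24 h replicate 1 or 3 (adjusted p 0.070 and 0.12). flp-13 did not pass the threshold on D1 or D4 (-0.16 on both) but fell on D15, from 56.7 to 65.1 CPM to 28.8 to 37.5 (-0.77, SE 0.12), and on D30, from 63.2, 63.5 and 68.6 to 38.1, 44.6 and 49.8 (-0.50, SE 0.09). flp-2 changed by 0.06 on D1 (not called) and fell by 0.91, 0.65 and 0.44 on the later days. flp-11, the RIS gene, passed the threshold on D30 alone (-0.20, SE 0.06), and that call was lost without D30 24 h replicate 1 or 3 (adjusted p 0.053 and 0.093).

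The locomotion gene flp-1 was also not called on D1. Its change on D1 was -0.17 (SE 0.08, adjusted p = 0.084), and it fell by 0.44 on D4, by 0.78 on D15 and by 0.39 on D30. On D15 it went from 347 to 398 CPM at 0 h through 269 to 284 at 6 h to 180 to 215 at 24 h, with no overlap between the 3 times. On D4 the largest falls after flp-34 were those of flp-32 (-0.93, SE 0.13), flp-27 (-0.92, SE 0.16) and flp-2. flp-32 went from 44.6, 52.7 and 58.1 CPM to 25.9, 26.4 and 29.1, flp-27 from 36.3, 38.5 and 44.4 to 19.4, 21.2 and 21.6, and flp-2 from 40.4, 42.7 and 45.5 to 20.7, 24.1 and 24.5. In all 3 the times 0 and 24 h were far apart. On D30 the largest falls after flp-13 were those of flp-27, from 74.4, 77.01 and 82.8 CPM to 51.1, 52.9 and 62.3 (-0.45, SE 0.08), and flp-8, from 53.9, 56.6 and 62.1 to 38.1, 39.9 and 43.1 (-0.44, SE 0.07), ahead of flp-34. flp-32 did not pass the threshold on D1 or D15 (0.07 and -0.15).

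Few members rose. On D1 these were flp-33, from 16.9 to 17.6 CPM at 0 h to 22.8 to 27.1 at 24 h (log2 change 0.65, SE 0.11), flp-14, from 80.2 to 83.2 to 111 to 115.1 (0.50, SE 0.07), and flp-18 (0.21, SE 0.06). flp-33 rose again on D15, from 22.9 to 26.5 CPM to 32.03 to 34.8 (0.51, SE 0.09), with values of 0.22 on D4 and -0.13 on D30 that were not called. flp-14 and flp-18 turned with the day: flp-14 fell by 0.25 on D30 (difference between days, adjusted p = 4.9e-07), and flp-18 fell by 0.62 on D4 and by 0.24 on D30 (adjusted p = 7.7e-06). The fall of flp-18 on D30 was lost without D30 24 h replicate 3 (adjusted p = 0.090).

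**Figure D4:**
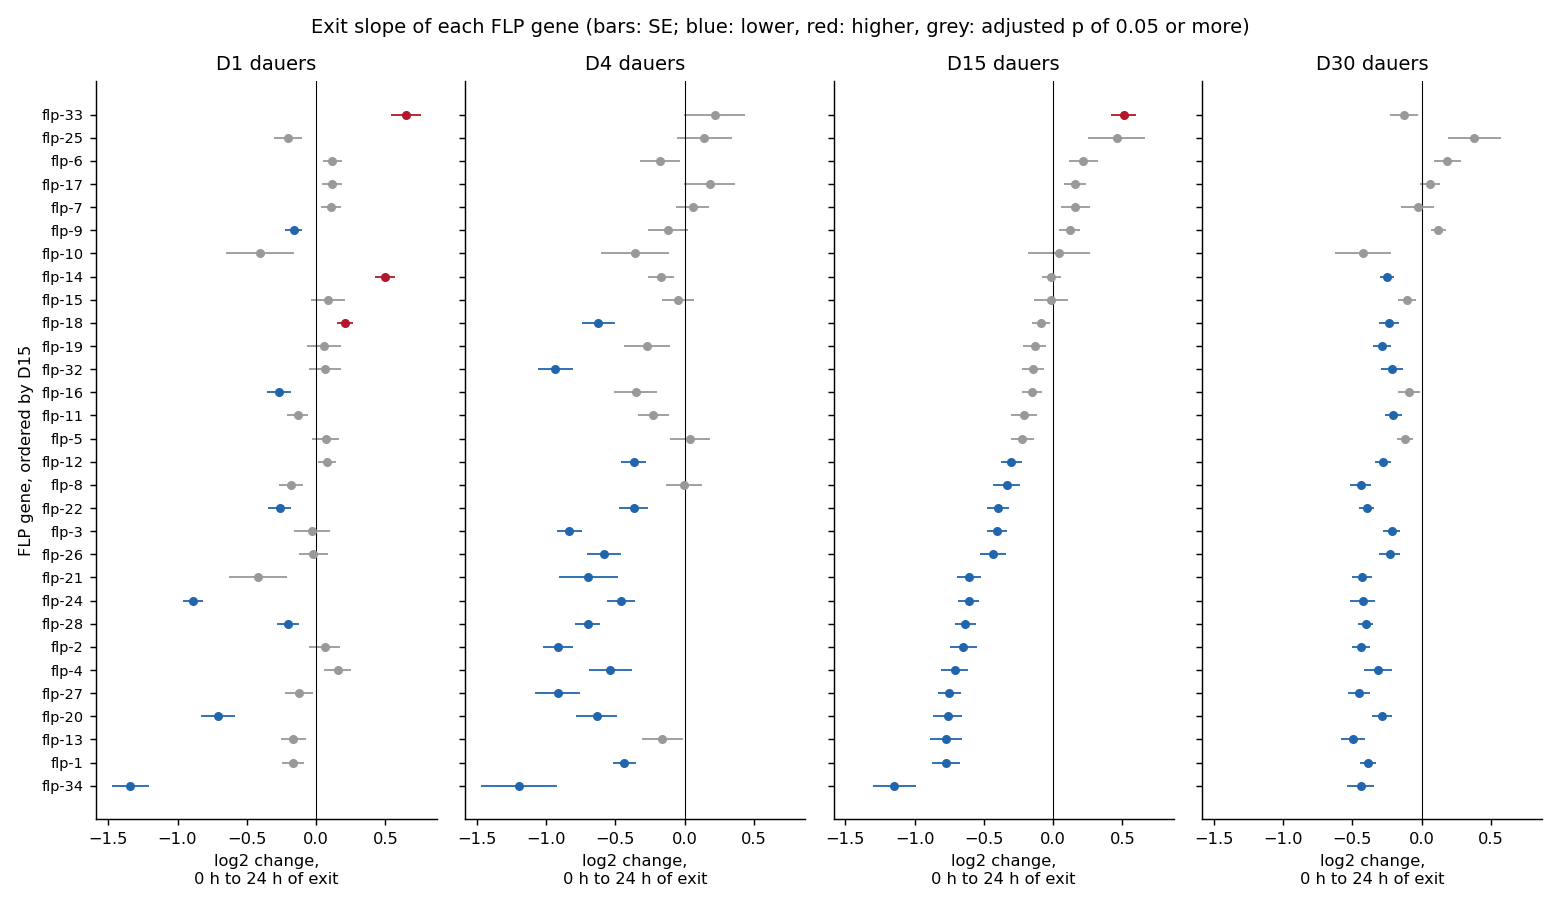
Change of each of the 30 tested FLP genes from 0 to 24 h of exit, in log2 units, for dauers of D1, D4, D15 and D30 (panels; points are fitted slopes and bars SE over 9 libraries; blue is lower and red higher past the threshold, grey is not called). Blue points number 7 on D1, 15 on D4, 15 on D15 and 20 on D30.

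Over the 4 days, 5 members fell on each (flp-20, flp-22, flp-24, flp-28 and flp-34), 8 fell on 3, 4 on 2, 5 on 1, and 8 on none (flp-5, flp-6, flp-7, flp-10, flp-15, flp-17, flp-25 and flp-33). The D1 call of flp-28 was lost without any of 7 single libraries, at most at an adjusted p of 0.25 without D1 24 h replicate 1. That of flp-22 was lost without D1 24 h replicate 1 or 2 (0.095 and 0.065), and its D4 call without D4 24 h replicate 1 (0.0998). All 15 members that fell on D4 and all 15 that fell on D15 were among the 20 that fell on D30, and 13 fell on all 3 of these days. Calls that held without each library numbered 6 of 10 on D1, 12 of 15 on D4, 15 of 16 on D15 and 14 of 20 on D30.

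Outside D15, few members were lower at the earlier time. At 6 h against 0 h, compared alone, 5 members were higher and 1 lower on D1 (22.2% and 22% of all genes), 5 and 1 on D4 (24.4% and 22.5%), and 2 and 2 on D30 (13.4% and 15%). D15 dauers had 12 lower and 4 higher by 6 h (28.5% and 30%). At 24 h against 0 h the members lower and higher numbered 7 and 3 on D1 (34.5% and 34.2%), 15 and 1 on D4 (30.1% and 33.1%), 19 and 3 on D15 (29.9% and 32.2%), and 20 and 3 on D30 (27.5% and 28.4%). Both times of a day share its 0 h libraries. flp-25 was called higher at 6 and 24 h on D15 (log2 changes of 0.71 and 0.63) and on D30 (0.66 and 0.56). So was flp-6, by 0.31 and 0.26 on D15 and by 0.33 and 0.25 on D30. Neither gene passed the threshold along the slope on these days.

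FLP levels 24 h into exit were still above those of L3 larvae. Against L3, 23 members were higher and 1 lower after exit from D1 (34.8% and 34.5% of 13277 genes, 69.2% in all), 27 and 1 from D4 (30% and 30.1% of 12767, 60.2% in all), 28 and 1 from D15 (37% and 37.4% of 13506, 74.4% in all) and 28 and 1 from D30 (40.2% and 40.1% of 13545, 80.2% in all). These comparisons share the L3 libraries. The median log2 differences of the members were 0.69, 0.75, 1.35 and 1.31, and those of all genes were at most 0.02. The FLP sum at 24 h was 1243 to 1300, 1292 to 1313, 1959 to 2104 and 2069 to 2110 CPM for exit from D1, D4, D15 and D30. Per pan-neuronal sum it was 1.21 ± 0.02 (SD, n = 3), 1.21 ± 0.02, 1.55 ± 0.03 and 1.58 ± 0.02, above the 0.67 ± 0.02 of L3 in every library. Library totals alone moved the median of all genes by 0.29 to 0.41 in these comparisons.

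flp-32 remained the member farthest above L3, at 36.1 to 38.3 CPM 24 h into exit from D1 and 49.8 to 52.1 from D30, with log2 differences of 2.39 (SE 0.10) and 2.79 (SE 0.09). flp-10 was above L3 by 1.16, 1.80, 2.45 and 2.74 after exit from D1, D4, D15 and D30, with 8.96, 9.96 and 10.5 CPM after D30. flp-20 had 37.3, 38.4 and 42.0 CPM after D30 beside 7.27, 8.63 and 8.82 in L3 (log2 difference 2.23, SE 0.11), and flp-2 had 41.0, 44.2 and 44.6 beside 8.26, 9.44 and 11.1 (2.15, SE 0.12). These arousal genes did not overlap L3. flp-28, at 17.0 to 20.7 CPM in L3, was at 43.0, 49.1 and 52.1 after D1, 43.3, 48.0 and 48.1 after D4 and 76.6, 77.2 and 80.9 after D15 (1.39, 1.35 and 2.05). flp-34 overlapped the L3 libraries after exit from D1 and D4 (0.21 and 0.12, not called) but was above it by 0.97 after D15 and by 1.81 after D30. Below L3 were flp-24 after exit from D1 (-0.72, SE 0.11, adjusted p = 7.8e-04) and flp-8, the URX gene, after exit from D30, where it was at 38.1 to 43.1 CPM beside 52.4 to 61.2 in L3 (-0.54, SE 0.08, adjusted p = 4.6e-04). flp-8 was also called lower after exit from D4 (-0.26) and D15 (-0.23), but with library totals alone these values turned to 0.03 and 0.13, and both calls were lost without any single library of the exit group (adjusted p 0.054 to 0.19).

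Among larvae leaving dauer on D1, FLP transcripts were lower where UV had been given. At 6 h of exit 16 members were lower and 0 higher than without UV (13.4% and 14.4% of 13463 genes, 27.8% in all), with a median of -0.25 beside 0.00 for all genes, and at 24 h 7 were lower and 0 higher (6.13% and 5.54% of 13113, 11.7% in all), with a median of -0.13. No member was higher at an unadjusted p under 0.05 in edgeR or in DESeq2, which called 13 and 4 lower. flp-7, of fat control, was at 27.6, 28.1 and 29.2 CPM without UV and at 14.8, 16.9 and 18.4 with it at 6 h (log2 difference -0.73, SE 0.09, adjusted p = 1.6e-04), with the groups well apart. flp-6, expressed in the AFD thermosensory neurons, was at 57.6 to 65.0 CPM and 42.9 to 47.1 (-0.43, SE 0.07), and flp-3 at 37.2 to 39.3 and 27.2 to 29.3 (-0.40, SE 0.07). All 3 were well apart between the groups, and flp-27 narrowly so, at 22.7, 28.5 and 28.5 CPM without UV and 17.9, 19.4 and 22.6 with it (-0.39, SE 0.12). The call of flp-27 was lost without D1 6 h replicate 1 or 2 or D1 6 h UV replicate 1 or 3 (adjusted p 0.059 to 0.12). At 6 h 8 of the 13 pan-neuronal genes were also lower and 0 higher, with a median of -0.40, and their sum was 1006 to 1097 CPM with UV and 1337 to 1382 without, so that the FLP sum per pan-neuronal sum was 1.13 ± 0.02 (SD, n = 3) with UV and 1.04 ± 0.03 without. Without D1 6 h UV replicate 1, 9 members were called lower, and without D1 6 h replicate 2, 10. The calls of 8 members, flp-27 among them, were lost without some library (adjusted p 0.0504 to 0.14).

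At 24 h of exit from D1, flp-33 showed the largest UV difference, with 22.8, 23.4 and 27.1 CPM without UV and 14.0, 14.0 and 15.5 with it (-0.76, SE 0.10, adjusted p = 7.3e-04). The irradiated libraries were below the unirradiated D1 dauers at 0 h. flp-18, at 113, 117 and 124 CPM without UV and 89.3, 89.7 and 95.5 with it (-0.37, SE 0.06), flp-14 (-0.32, SE 0.05) and flp-6 (-0.31, SE 0.07) were lower as well, and these 4 calls held without each library. The other 3, flp-7, flp-9 and flp-19, were lost without D1 24 h replicate 1 and without D1 24 h UV replicate 2, which left 4. flp-19 was at 29.8, 36.3 and 36.3 CPM without UV and 24.4, 26.7 and 28.4 with it (-0.38, SE 0.10), and flp-7 at 26.6, 27.8 and 28.7 and 20.98, 22.1 and 23.8 (-0.32, SE 0.09).

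In larvae held in dauer until D4, few members differed with UV. At 0 h 1 member was higher and 4 lower (18.1% and 14.4% of 11420 genes, 32.5% in all). flp-17, the BAG gene, was at 53.2, 55.8 and 58.9 CPM without UV and at 80.3, 97.9 and 99.7 with it (log2 difference 0.79, SE 0.11, adjusted p = 1.7e-04). flp-27, flp-6, flp-32 and flp-18 were lower by 0.62, 0.54, 0.51 and 0.50. flp-18 was at 133, 138 and 144 CPM without UV and at 93.6 ± 6.2 (SD, n = 3) with it, the lowest at 87.7, and flp-6 at 51.7, 53.4 and 69.4 and at 33.2, 39.5 and 41.5. With UV flp-27 was at 22.2, 22.4 and 30.56 CPM and flp-32 at 31.9, 32.1 and 39.4, below all unirradiated D4 libraries. These irradiated libraries were the shallowest of all, and the dauer markers summed to 1307 to 1748 CPM in them and to 775 to 822 without UV, and the body-wall muscle genes to 2008 to 2725 and 1233 to 1483. The part of any of these was not tested. Without D4 0 h UV replicate 1 or 3, 2 calls were left, flp-17 and flp-18, which held without each library. At 6 and 24 h of exit from D4, edgeR called 0 members at 6 h, where 0.936% of 10896 genes were higher and 0.441% lower (1.38% in all), and 0 at 24 h, where 0.126% of 11936 were higher and 0.00838% lower (0.134% in all), with 5 and 1 lower at an unadjusted p under 0.05, and DESeq2 called 0.

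The UV effect on D4 differed between the 3 times for 3 members, flp-17, flp-18 and flp-8 (22.8% of 12780 genes). At 6 and 24 h flp-17 no longer stood apart, with 71.3 to 89.6 CPM without UV and 65.4 to 75.2 with it at 6 h, and 68.2 to 72.1 and 65.8 to 73.0 at 24 h (adjusted p of the difference between times 2.3e-04). Without D4 6 h UV replicate 1 the count was 5. The calls of flp-18 and flp-8 were lost in single fits: that of flp-18 without D4 0 h replicate 2, D4 24 h replicate 1 or D4 24 h UV replicate 2, and that of flp-8 without D4 6 h replicate 2 (adjusted p 0.051 to 0.057).

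**Figure D5:**
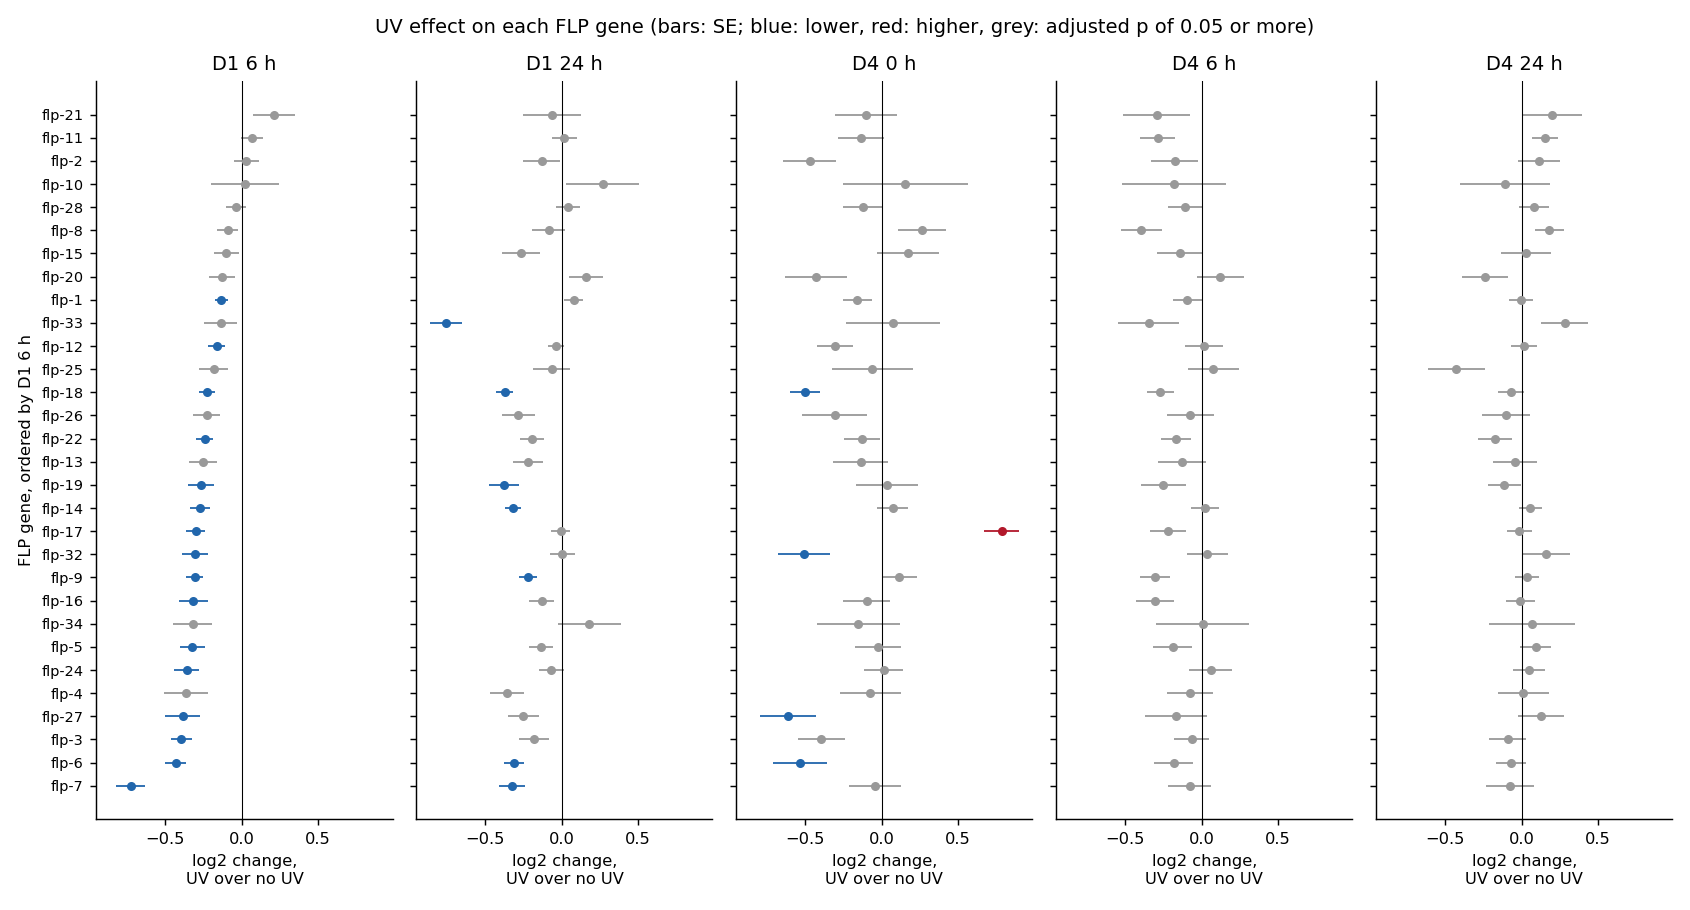
UV effect on each of the 30 tested FLP genes, as log2 of UV over no UV, at 5 times (panels; points are fitted differences and bars SE of 3 against 3 libraries; blue is lower and red higher past the threshold, grey is not called). Blue points number 16 at D1 6 h, 7 at D1 24 h and 4 at D4 0 h, where flp-17 is the one red point, and no point is coloured at D4 6 h or D4 24 h.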

How the data were processed

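The deposited estimated counts, not scaled for library size, were made by the authors by trimming reads with fastp, quantifying them with Salmon (library type detected automatically) on WBPS15 transcripts and summing to genes with tximport. They were rounded to whole numbers. Groups and replicates came from the sample labels. The numbers of replicates did not pair samples: over 85 pairs of groups, no pair had every correlation over 0.1.

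A gene entered a comparison if 3 or more of its libraries held 10 or more counts. Tests used edgeR 4.0.16 (glmQLFit, glmQLFTest, TMM, two-sided) in R 4.3.3, with p-values adjusted by Benjamini-Hochberg over all genes tested, at a threshold of 0.05. Slopes on day or hour are given over the whole range. SE is the log2 change over the square root of F. P-values rest on 3 biological replicates per group. Any member could be named; per comparison, the 4 called members that rose farthest and the 4 that fell farthest came first, and from other lists up to 2 per direction with the smallest p. The gene egl-3 was named outside this rule, after its values were seen. The members, lists and tests were chosen with earlier results of these data known. Alternatives were DESeq2 1.42.0, RLE factors, library totals alone (chosen after seeing the data), no filter, a replicate block, all 54 libraries in 1 fit, other time scales and each library left out. Fits were tested on simulated data. Sequences were not used here.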

Additional observations from a re-analysis of the deposited data

Results flagged for a closer look

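The exit slopes of the 4 dauer days differed by a direct test of the difference (hour by day, 3 degrees of freedom, edgeR quasi-likelihood test, adjusted over all genes) for 17 of 30 members, a share below the 64.2% of all 14975 genes called by this test. The adjusted p was 4.9e-07 for flp-14, 7.0e-06 for flp-2, 7.7e-06 for flp-18, 2.1e-05 for flp-32, 9.2e-05 for flp-3, 9.5e-05 for flp-4 and 1.2e-04 for flp-1. It was 3.0e-04 for flp-28, 3.8e-04 for flp-27, 6.2e-04 for flp-24, 8.2e-04 for flp-13, 0.00106 for flp-34 and 0.00107 for flp-12. For flp-33, flp-26, flp-20 and flp-8 it was 0.00472, 0.00544, 0.011 and 0.0152. All 17 calls held without each library in turn, but that of flp-20 was lost with RLE factors (adjusted p = 0.055) and that of flp-8 with library totals alone (0.64).

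The UV effects at 0, 6 and 24 h of exit from D4 differed by the same kind of test (2 degrees of freedom) for flp-17 (adjusted p = 2.3e-04), flp-18 (0.0104) and flp-8 (0.0165), which is 3 of 30 members beside 22.8% of all 12780 genes. The call of flp-17 held without each library, those of flp-18 and flp-8 did not. The 0 h libraries with UV in this test held 670316 to 856869 counts.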

How the results depend on the processing

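Of the members' calls, 2039 kept direction and side of the threshold under the other settings, 127 lost the threshold and 21 turned; with libraries left out, 3091 were kept, 206 lost the threshold and none turned. The cause of these changes was not tested. On the slope over dauer days, 14 members were called with D1 left out. With 6 h against 0 h alone, calls numbered 6 on D1 (5 higher, 1 lower), 6 on D4 (5 and 1) and 4 on D30 (2 and 2). In this setting, which leaves out the 24 h libraries, the log2 change turned to 0.010 for flp-9, 0.021 for flp-16, 0.0073 for flp-20, 0.11 for flp-22 and -0.056 for flp-33 on D1. On D4 it turned to 0.026 for flp-1, 0.18 for flp-4, 0.11 for flp-18, 0.084 for flp-21 and 0.044 for flp-22, and on D15 to 0.0016 for flp-22. On D30 it turned to 0.12 for flp-4, 0.031 for flp-12, 0.047 for flp-18, 0.020 for flp-20, 0.029 for flp-24, 0.032 for flp-26 and 0.15 for flp-32. With library totals alone, exit on D30 had 12 calls (2 higher, 10 lower), UV at D4 0 h had 8, flp-18 turned to -0.068 from D4 to D15, and flp-8 turned to 0.034 at D4 24 h and 0.13 at D15 24 h against L3. UV at D4 0 h had 8 calls with no filter, 3 with DESeq2 and 9 with all 54 libraries in 1 fit, where UV at D4 6 h had 2.

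With 1 library left out, calls ranged from 9 to 16 for D30 against D15, from 9 to 16 for UV at D1 6 h, from 4 to 7 at D1 24 h, from 2 to 7 at D4 0 h, and from 2 to 5 for the UV effect between times. UV at D1 24 h had 4 calls with DESeq2 and 4 with the replicate block. The block moved no other count by more than 1.5 times, and the replicate numbers share only a name: correlations of deviations ran from -0.203 to 0.124.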
